A study of Mus musculus with 6 samples.

Results

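The solute carrier families Slc1, Slc3, Slc6, Slc7, Slc36, Slc38 and Slc43 hold most of the plasma membrane transporters of amino acids in mammals. Their genes were taken from liver arrays by symbol alone, as every gene with 1 symbol in the array annotation that begins with Slc1a, Slc3a, Slc6a, Slc7a, Slc36a, Slc38a or Slc43a followed by a number. This gave 62 of the 19938 genes measured, namely 7 Slc1a, 2 Slc3a, 20 Slc6a, 15 Slc7a, 4 Slc36a, 11 Slc38a and 3 Slc43a genes, by a rule that uses no measured value. The opposite strand genes Slc6a19os and Slc7a6os were left out.

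The livers came from 3 Lkb1KOlivad mice (KO, numbered B253, B304 and B305) and from 3 controls (WT, numbered B256, B267 and B302), all labelled as females, with 1 array per mouse. The mutant mice were adult Lkb1 fl/fl;TTR-CreTam animals on an FVB/N background, in which tamoxifen activates a Cre recombinase driven by the hepatocyte-specific transthyretin promoter. The controls were Cre-negative Lkb1 fl/fl littermates, and the paper states that tamoxifen was given to both groups. The fasted state comes from the paper and is not in the sample labels. Because the promoter is active in hepatocytes, Lkb1 is left intact in the other cells of the liver, and their RNA is in the same samples.

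Amino acid uptake is the first step by which the fasting liver draws on alanine, glutamine and other amino acids for gluconeogenesis. System A transporters (Slc38a1, Slc38a2 and Slc38a4) carry small neutral amino acids into the cell with sodium, and system N transporters (Slc38a3 and Slc38a5) carry glutamine, asparagine and histidine. Slc7 light chains work as exchangers bound to a heavy chain, Slc3a1 or Slc3a2, whereas the cationic members of Slc7 work alone. Lkb1, encoded by Stk11, is a kinase that activates Ampk and related kinases. The question addressed was whether the transcripts of these transporters differed between mutant and control livers.

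Values are log2 RMA signals, a background-corrected and normalized brightness, on which a difference of 1 is a fold of 2. The array medians lay between 5.03 and 5.08. Stk11 had signals of 6.52, 6.42 and 6.48 in the KO livers, against 8.24, 8.13 and 7.96 in the WT livers (log2 fold change of -1.64, adjusted p = 0.00705 from limma), and so went with the labels. All 8 hepatocyte markers checked were measured, with mean signals of 10.11 to 12.6. The 3 Y-linked genes measured (Eif2s3y, Uty and Kdm5d) gave signals of 2.59 to 3.36 in these female livers. They give a guide to the signal of genes that are not transcribed. Each series of mouse numbers, the two-hundreds (B253, B256 and B267) and the three-hundreds (B302, B304 and B305), held both groups, and the labels do not say what a series stands for.

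The transporter genes spanned nearly the whole range of the arrays. Their mean signals over the 6 livers lay between 2.80 (Slc7a12) and 11.95 (Slc38a4). The signal depends on the probes as well as on the transcript, so these values are not amounts and do not rank one gene's RNA against another's. Of the 62 genes, 27 lay above the median of all genes, which was 5.26, and 9 lay above the 90th percentile of 8.07. Slc6a15, a neutral amino acid carrier best known from brain, and the light chain genes Slc7a11, Slc7a12 and Slc7a13 stayed at or under 3.36 in all 6 livers, as did 7.22% of all genes. Slc7a11 encodes xCT, the cystine and glutamate exchanger.

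No transporter gene passed the test between the genotypes. At an adjusted p under 0.05, where 0.0% of all genes were called higher and 0.00502% lower in the KO livers, the count was 0 of 62 in both directions, and every one of the 62 had an adjusted p of 0.9997 from limma. At an unadjusted p under 0.05, 1 gene (Slc3a1) was higher, or 1.61% of the members, against 1.52% of all genes. At the same level 2 genes (Slc43a1 and Slc7a15) were lower, or 3.23%, against 1.51% of all genes, and together these 3 made 4.84%, against 3.03% of all genes. With the methods' t-test, which they give without naming the arrays, there were 0 genes higher and 1 lower (Slc38a11) at that unadjusted level and 0 after Benjamini-Hochberg adjustment. The log2 fold changes were above 0 in 31 of the 62 genes and below 0 in the other 31, while 51.6% of all genes were above 0. Their median was -0.0036, against 0.0049 over all genes, and they ranged from -0.54 to 0.54. The median absolute log2 fold change was 0.097 for the transporters and 0.089 for all genes.

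The 6 arrays set the size of change that could be seen. The 95% interval around a transporter's log2 fold change had a median half-width of 0.32, as it did over all genes. For 61 of 62 genes (98.4%, against 97.9% of all genes) the interval stayed within 1 of 0, that is within a fold of 2. The exception was Slc6a20b. Within 0.5 of 0, a fold of 1.41, lay the intervals of 40 genes (64.5%, against 69.6% of all genes). The intervals of the other genes reached beyond that bound, so larger changes of them lay within the intervals. Among these other genes, the intervals of Slc3a1, Slc43a1 and Slc7a15 did not include 0.

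**Figure D1:**
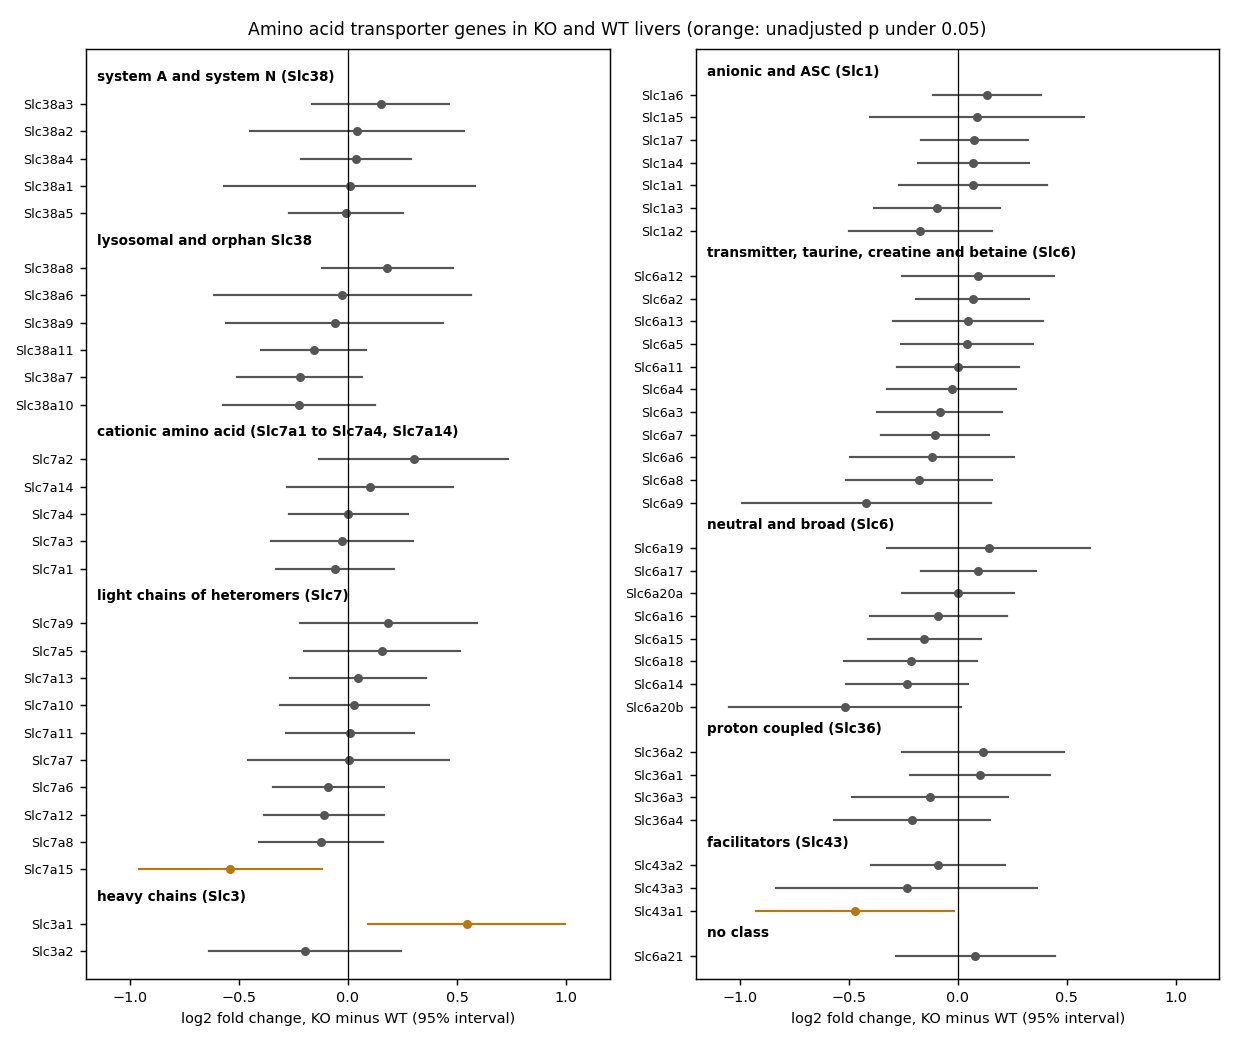
Log2 fold change of each of the 62 transporter genes, KO minus WT livers, with its 95% interval (points and bars, n = 3 livers a group), grouped by transport class. Orange points have an unadjusted p under 0.05 and are Slc3a1, Slc7a15 and Slc43a1. The intervals of the other 59 genes include 0.

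The sodium-coupled system A and system N genes gave some of the brightest probe sets of the families. Slc38a4 (probe set 10431915), the system A carrier typical of liver, had signals of 11.94, 12.02 and 11.95 in the KO livers, against 12.02, 11.96 and 11.83 in the WT livers. The ranges overlapped, the log2 fold change was 0.04 (unadjusted p = 0.76 from limma), and its 95% interval of -0.22 to 0.29 is a fold of 0.86 to 1.22. Slc38a2 (10431894), the system A carrier that cells induce when amino acids are scarce, had signals of 10.56, 10.63 and 10.07 in the KO livers, against 10.80, 10.25 and 10.08 in the WT livers. Both genotypes held a high and a low liver for Slc38a2, and its log2 fold change of 0.04 had a wide interval (-0.45 to 0.53).

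Slc38a3 (10596718), the system N glutamine carrier of hepatocytes, had signals of 10.60, 10.38 and 10.25 in the KO livers, against 10.08, 10.36 and 10.34 in the WT livers. KO B253 was the highest and WT B256 the lowest, and the other 4 livers lay within the gap between them. The log2 fold change of Slc38a3 was 0.15 (95% interval -0.16 to 0.46), with 0.38 within the two-hundreds and -0.02 within the three-hundreds. The remaining genes of these systems, Slc38a1 and Slc38a5, had fold changes of 0.01 and -0.01 on the log2 scale. Of the 5 system A and N genes, 0 passed the adjusted or unadjusted level, and their median log2 fold change was 0.04.

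The other Slc38 genes encode lysosomal carriers and proteins whose substrates are less well known. Their log2 fold changes were below 0 in 5 of 6, with a median of -0.11, and 0 passed either level. With the number series as a block the median was -0.04. Slc38a6 and Slc38a9 were then above 0 (0.16 and 0.05), while Slc38a7, Slc38a10 and Slc38a11 stayed below it. Slc38a7 (10580957), which exports glutamine from lysosomes, had signals of 5.58, 5.46 and 5.59 in the KO livers, against 5.92, 5.58 and 5.79 in the WT livers. Only WT B267 reached down into the mutant range for Slc38a7 (log2 fold change of -0.22, unadjusted p = 0.11 from limma). Slc38a10 (10393728) had signals of 6.11, 5.75 and 5.77 in the KO livers, against 5.99, 6.34 and 5.97 in the WT livers. Here KO B253 lay inside the control range, and the log2 fold change was -0.23.

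Slc38a11 (10483199), an orphan member, had signals of 3.30, 3.26 and 3.18 in the KO livers, against 3.36, 3.42 and 3.43 in the WT livers. The groups did not overlap, but all 6 values lay close to those of the Y-linked genes, and the log2 fold change was -0.16 (exact two-sided permutation p = 0.1, the smallest that 3 against 3 livers can give). Slc38a9, the lysosomal arginine sensor of mTORC1, was measured by a pair of probe sets that disagreed in sign. The brighter one, 10407192, gave a log2 fold change of -0.06. The other, 10407209, had signals of 6.43, 6.22 and 6.56 in the KO livers, against 5.97, 6.09 and 5.92 in the WT livers, with no overlap and a log2 fold change of 0.41. It was not the probe set used and has no adjusted p here.

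Slc3a1 (10447264, chromosome 17) had the largest log2 fold change upwards among the 62 genes. It encodes rBAT, the heavy chain that brings the light chain Slc7a9 to the membrane for the uptake of cystine and dibasic amino acids. Its signals were 10.58, 10.32 and 10.21 in the KO livers, against 10.23, 9.78 and 9.46 in the WT livers. KO B305 lay just under WT B256, and the other 4 livers were separated by genotype. The log2 fold change was 0.54 (standard error 0.20, 95% interval 0.09 to 0.997), a fold of 1.46. Its unadjusted p = 0.024 and adjusted p = 0.9997 came from limma. The exact two-sided permutation test of these 3 against 3 livers gave p = 0.2. Leaving out KO B253, WT B267 or WT B302 took the unadjusted p above 0.05 (0.084, 0.057 and 0.080 in limma), while the log2 fold change stayed between 0.36 and 0.75 whichever liver was left out. Within the two-hundreds the difference was 0.58 and within the three-hundreds 0.80. With the number series as a block it was 0.69 (unadjusted p = 0.0024 and adjusted p = 0.89 from limma).

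Slc3a2 (10465772), the heavy chain also known as 4F2hc or CD98, had signals of 7.87, 7.43 and 7.55 in the KO livers, against 8.20, 7.54 and 7.70 in the WT livers. Its log2 fold change was -0.20 (95% interval -0.64 to 0.24), and the groups overlapped. The difference between the changes of both heavy chains was not tested. Slc7a9, the light chain partner of Slc3a1, had a low mean signal of 3.96 and a log2 fold change of 0.19 (unadjusted p = 0.33 from limma). Among the partners of Slc3a2, Slc7a5 (the large neutral amino acid exchanger LAT1) had a log2 fold change of 0.16, Slc7a7 of 0.00, Slc7a8 of -0.12, Slc7a6 of -0.09 and Slc7a10 of 0.03, and none of these 5 reached an unadjusted p under 0.05.

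Slc7a15 (10399365) encodes a light chain that prefers aromatic amino acids in mouse. Its signals were 4.99, 5.04 and 5.51 in the KO livers, against 5.59, 6.02 and 5.55 in the WT livers. All 3 KO values lay under all 3 WT values, with KO B305 close to WT B302 and the others farther apart. The log2 fold change was -0.54 (standard error 0.18, 95% interval -0.96 to -0.12), a fold of 0.69. Its unadjusted p = 0.017 and adjusted p = 0.9997 came from limma. The exact permutation p was 0.1, the smallest possible with 3 livers a group. The difference was -0.82 within the two-hundreds and -0.28 within the three-hundreds, and without KO B253, KO B304 or WT B267 the unadjusted p in limma was 0.064, 0.064 and 0.065. Of the 10 light chain genes, 1 was lower at an unadjusted p under 0.05 and 0 were higher, and their median log2 fold change was 0.01.

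Groups that did not overlap were seen in 3 transporter genes, which is 4.84%, against 7.16% of all genes. Besides Slc7a15 and Slc38a11, which were lower (2 genes or 3.23%, against 3.7% of all genes), Slc1a6 was higher (1 gene or 1.61%, against 3.46% of all genes). Slc1a6 (10364402), known as a glutamate carrier of cerebellar Purkinje cells, had signals of 4.68, 4.86 and 4.76 in the KO livers, against 4.62, 4.60 and 4.68 in the WT livers. KO B253 and WT B302 nearly met there, and the log2 fold change was 0.13 (unadjusted p = 0.25 from limma).

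**Figure D2:**
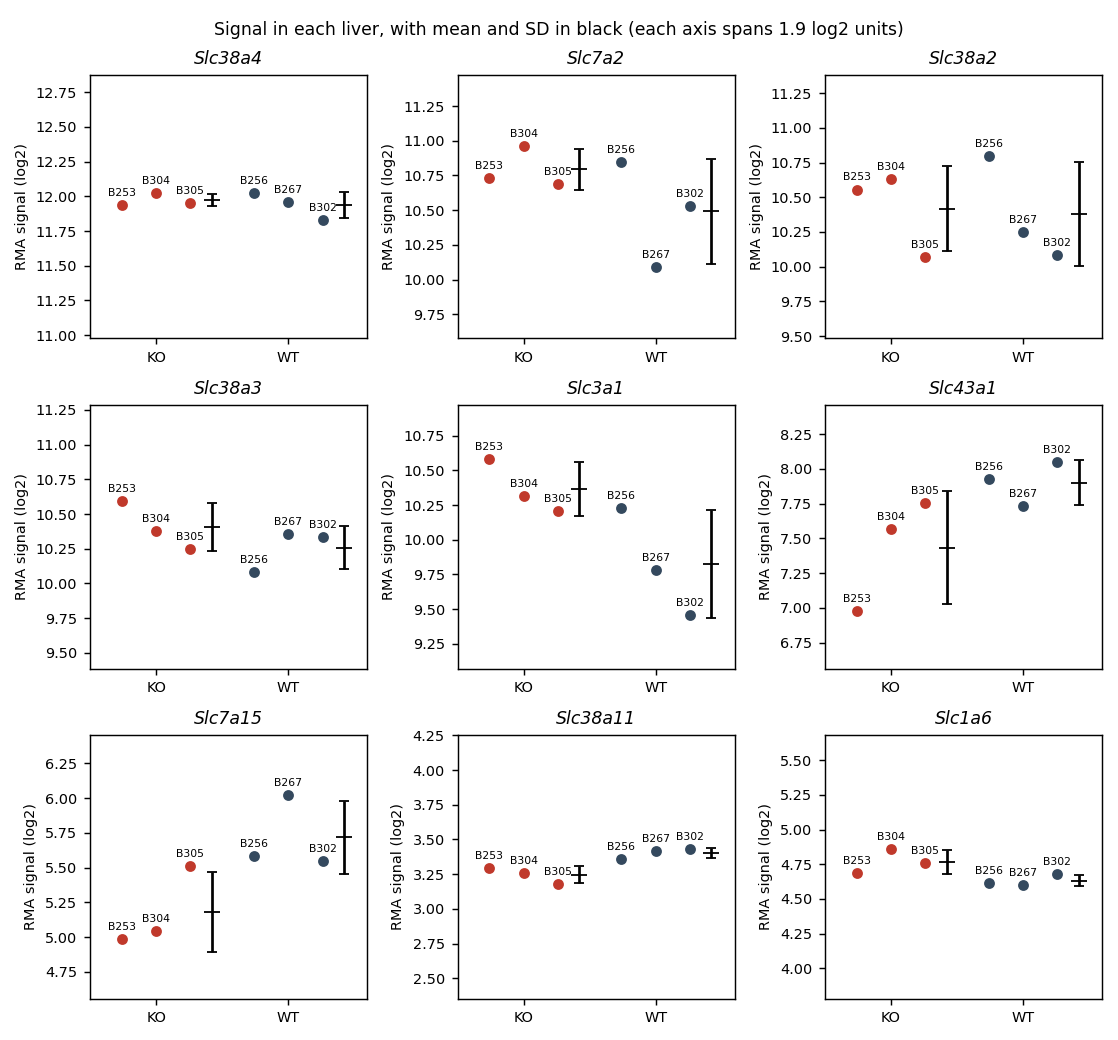
Log2 RMA signal of 9 transporter genes in each liver, KO (red) left of WT (dark blue), with the mean and SD of the 3 livers in black; every axis spans the same number of log2 units. Slc38a4 differed by 0.04 between the genotypes, Slc3a1 by 0.54 and Slc7a15 by -0.54, and the groups overlapped for Slc3a1 through KO B305 and WT B256.

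Slc43a1 (10473367, chromosome 2) encodes LAT3, a facilitator of branched-chain and other large neutral amino acids. Its signals were 6.98, 7.57 and 7.75 in the KO livers, against 7.93, 7.73 and 8.05 in the WT livers. KO B253 was well below the other 5 livers, and KO B305 lay just above WT B267. The log2 fold change was -0.47 (standard error 0.20, 95% interval -0.92 to -0.02), a fold of 0.72. Its unadjusted p = 0.044 and adjusted p = 0.9997 came from limma, and the exact two-sided permutation p was 0.2. Without KO B253 the log2 fold change was -0.24 (unadjusted p = 0.15 from limma). Without KO B304, WT B256 or WT B302 the unadjusted p in limma was 0.056, 0.088 and 0.12, and it was also above 0.05 in the alternatives of median centring, array weights, trend with robust estimation, quantile normalization and without dim genes (0.050 to 0.085). Within the two-hundreds, where KO B253 is the single mutant liver, the difference was -0.85, and within the three-hundreds it was -0.39. With the number series as a block the log2 fold change of Slc43a1 was -0.62 (unadjusted p = 0.0035 from limma). No transporter had an adjusted p below 0.89 with that block.

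Slc43a3 (10473384) is a family member that carries purine nucleobases rather than amino acids, and its signals were 9.83, 8.90 and 9.49 in the KO livers, against 9.78, 9.94 and 9.20 in the WT livers. Each genotype held 1 low liver, and the log2 fold change of -0.23 had a standard error of 0.26. Slc43a2, the related facilitator LAT4, had a log2 fold change of -0.09. All 3 Slc43 genes thus had log2 fold changes below 0, with a median of -0.23, and 1 of them reached an unadjusted p under 0.05.

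The promoters of 2 transporter genes are shown. Slc3a1 had the largest upward difference, and Slc43a1 the largest downward difference among transporters with a mean signal above 7. Neither difference passed the adjusted test, and Slc7a15 and Slc6a20b had larger downward differences at lower signals. The promoters run from 250 bases before to 50 bases after the start of transcription, as RefSeq annotates it on GRCm38.p6. Slc3a1 lies on the plus strand at chr17:85028097-85028396 and Slc43a1 on the plus strand at chr2:84840073-84840372. Capitals mark matches to the letters CAAAGTCCA, a motif of the hepatocyte factor Hnf4a, and TATAAA, the TATA box, on either strand.
Slc3a1: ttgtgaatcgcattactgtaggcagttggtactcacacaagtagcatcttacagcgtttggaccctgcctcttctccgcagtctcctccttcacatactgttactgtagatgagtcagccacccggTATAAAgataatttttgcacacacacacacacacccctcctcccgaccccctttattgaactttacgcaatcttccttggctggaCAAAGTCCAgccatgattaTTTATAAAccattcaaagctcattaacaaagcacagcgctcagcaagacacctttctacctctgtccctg
Slc43a1: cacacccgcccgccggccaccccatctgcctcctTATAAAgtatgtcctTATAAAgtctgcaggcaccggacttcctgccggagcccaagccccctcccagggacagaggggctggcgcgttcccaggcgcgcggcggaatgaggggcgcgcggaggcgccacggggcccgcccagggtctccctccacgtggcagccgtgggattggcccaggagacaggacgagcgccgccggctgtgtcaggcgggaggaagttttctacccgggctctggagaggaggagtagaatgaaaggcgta
The Slc3a1 promoter held CAAAGTCCA 39 bases before the start and TATAAA 18 and 124 bases before it, with an overlapping match on the other strand at 20. The Slc43a1 promoter held TATAAA 216 and 201 bases before the start and no other motif searched. Of the 62 transporter genes, 45 had a promoter in the RefSeq table, with 66 promoters among them. CAAAGTCCA was found in 0.475% of all 32851 promoters and in 1 of the 66, and TATAAA in 13.6% of all and in 6 of the 66. The C/EBP-ATF response element TGATGNAA, through which amino acid shortage acts on many genes, was in 3.97% of all promoters and in 5 of the 66, those of Slc1a4, Slc6a21, Slc7a11 and Slc7a7. The cAMP response element TGACGTCA was in 1.79% of all promoters and in that of Slc38a6, and the Foxo motif GTAAACA in 3.65% of all and in those of Slc36a3 and Slc7a11. All 5 motifs were searched on both strands, and a match describes letters only.

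Slc7a2 (10571444) encodes CAT2, the carrier of arginine, lysine and ornithine that hepatocytes express. Its signals were 10.73, 10.96 and 10.69 in the KO livers, against 10.85, 10.09 and 10.53 in the WT livers. All 3 KO livers lay above WT B302 and WT B267 but 2 of them below WT B256. The log2 fold change was 0.30 (95% interval -0.13 to 0.74, unadjusted p = 0.15 from limma). Without WT B256 it was 0.48 with an unadjusted p of 0.024, and without WT B267 it was 0.10 with an unadjusted p of 0.54 (limma, adjusted p of 0.999 in both). The other 4 cationic carriers, Slc7a1, Slc7a3, Slc7a4 and Slc7a14, had log2 fold changes of -0.06, -0.03, 0.00 and 0.10.

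The Slc1 genes encode glutamate carriers and the neutral exchangers of system ASC. Slc1a2 (10474141), the glutamate carrier that marks the hepatocytes next to the central vein, had signals of 8.68, 8.55 and 8.40 in the KO livers, against 8.91, 8.49 and 8.74 in the WT livers. The groups overlapped through WT B267, and the log2 fold change was -0.17 (95% interval -0.50 to 0.16). Slc1a5, the glutamine exchanger ASCT2, had a log2 fold change of 0.09 and Slc1a4, its relative ASCT1, of 0.07. Of the 7 Slc1 genes, 5 had values above 0, the median was 0.07, and 0 passed either level.

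The Slc6 genes use sodium and chloride to carry transmitters, taurine, betaine, creatine and neutral amino acids. Slc6a13 (10541318), which moves taurine and GABA into hepatocytes in mouse, had signals of 9.93, 9.73 and 9.46 in the KO livers, against 9.72, 9.78 and 9.48 in the WT livers, and a log2 fold change of 0.05. Slc6a12 (10541333), the betaine carrier encoded beside it on chromosome 6, had signals of 8.97, 8.88 and 8.89 in the KO livers, against 9.13, 8.58 and 8.75 in the WT livers, and a log2 fold change of 0.09. The controls spread more widely for Slc6a12 than the mutants did (SD of 0.052 in KO and of 0.28 in WT livers, n = 3 each). Slc6a6 (10540122), the taurine carrier, had signals of 7.64, 8.11 and 8.08 in the KO livers, against 8.29, 7.98 and 7.91 in the WT livers. KO B253 was the lowest and the other 5 livers ran from 7.91 to 8.29, with a log2 fold change of -0.12.

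Slc6a9 (10507500), the glycine carrier GlyT1, had signals of 7.11, 7.29 and 6.89 in the KO livers, against 7.92, 6.89 and 7.73 in the WT livers. WT B256 and WT B302 were above all mutants, while WT B267 stood at the level of the lowest one, and the log2 fold change was -0.42 (95% interval -0.99 to 0.15, unadjusted p = 0.13 from limma). Slc6a20b (10597949), of the imino acid carriers, showed the same order of livers. Its signals were 5.18, 5.24 and 5.07 in the KO livers, against 6.10, 5.09 and 5.84 in the WT livers, with a log2 fold change of -0.52 (95% interval -1.05 to 0.02, unadjusted p = 0.056 from limma). Without WT B267 the log2 fold change was -0.73 for Slc6a9 and -0.81 for Slc6a20b, both at an unadjusted p under 0.05 and an adjusted p above it. Without WT B256 it was -0.22 for Slc6a9 and -0.30 for Slc6a20b, with unadjusted p of 0.41 and 0.20 from limma. Slc6a20a, the closely similar gene next to Slc6a20b on chromosome 9, had a log2 fold change of 0.00, and whether its probes also pick up the Slc6a20b transcript was not tested.

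Slc6a14 (10599008), a broad carrier of neutral and cationic amino acids, had signals of 2.96, 3.19 and 3.04 in the KO livers, against 3.16, 3.38 and 3.35 in the WT livers. These lay at the level of the Y-linked genes, and the log2 fold change of -0.23 had an unadjusted p of 0.092 from limma. Slc6a19, the neutral amino acid carrier of intestine and kidney, had a log2 fold change of 0.14 at a mean signal of 4.09. Of the 11 measured transmitter, taurine, betaine and creatine carriers 5 had log2 fold changes above 0 (median -0.03), and of the 8 neutral and broad carriers 3 did (median -0.12). No Slc6 gene reached an unadjusted p under 0.05.

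The Slc36 family includes proton-coupled carriers that export amino acids from lysosomes or take them up at the cell surface. All 4 Slc36 genes were measured, with log2 fold changes of 0.10 (Slc36a1), 0.12 (Slc36a2), -0.13 (Slc36a3) and -0.21 (Slc36a4), and 0 passed either level. Over all classes, the 42 genes not described by their values in each liver had log2 fold changes of -0.22 to 0.19, unadjusted p of 0.14 or above in limma, and mean signals of 2.80 to 7.48. The 62 genes lay on 19 chromosomes, with 8 pairs of direct neighbours that included Slc38a1, Slc38a2 and Slc38a4 on chromosome 15.

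**Figure D3:**
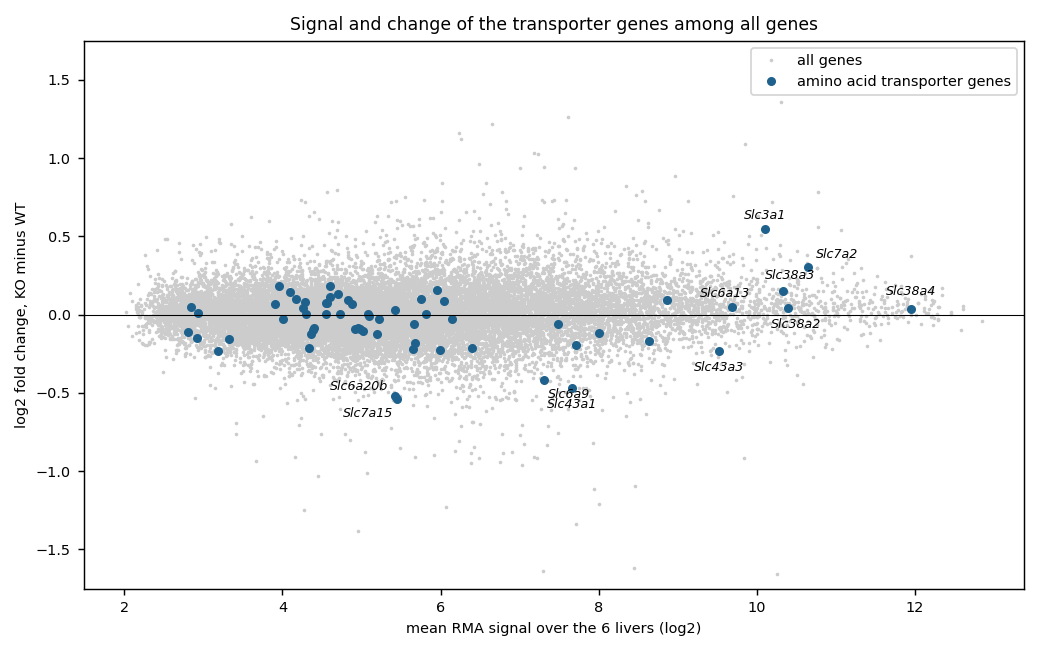
Log2 fold change (KO minus WT) against the mean log2 RMA signal over the 6 livers for all 19938 genes (grey) and the 62 transporter genes (blue). The transporters lay between -0.54 and 0.54, and Slc38a4, at 11.95, had the highest signal of them.

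Changes beyond 0.5 on the log2 scale were seen in 3 transporter genes (Slc3a1, Slc7a15 and Slc6a20b), which is 4.84%, against 1.18% of all genes. This difference in share was not tested. Single livers weighed on the families in an uneven way. The highest of the 6 values belonged to WT B256 in 18 of the 62 genes (29.0%), against 16.8% of all genes, and to KO B305 in 4 (6.45%), against 11.8% of all genes. Among the 14 transporters with a mean signal above 7, WT B256 was highest in 7 and KO B305 in 0. The share over all genes of that brightness was not counted, so these counts have no background. WT B256 also had the highest mean of the 8 hepatocyte markers, 0.23 above the WT mean, while the 3 KO livers lay between -0.01 and 0.11. This was not particular to hepatocyte markers. Of the marker lists described below, WT B256 was also highest for sinusoidal endothelial (0.25), Kupffer (0.29) and stellate cells (0.11). For cholangiocytes, T and NK cells and neutrophils another liver was highest.

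**Figure D4:**
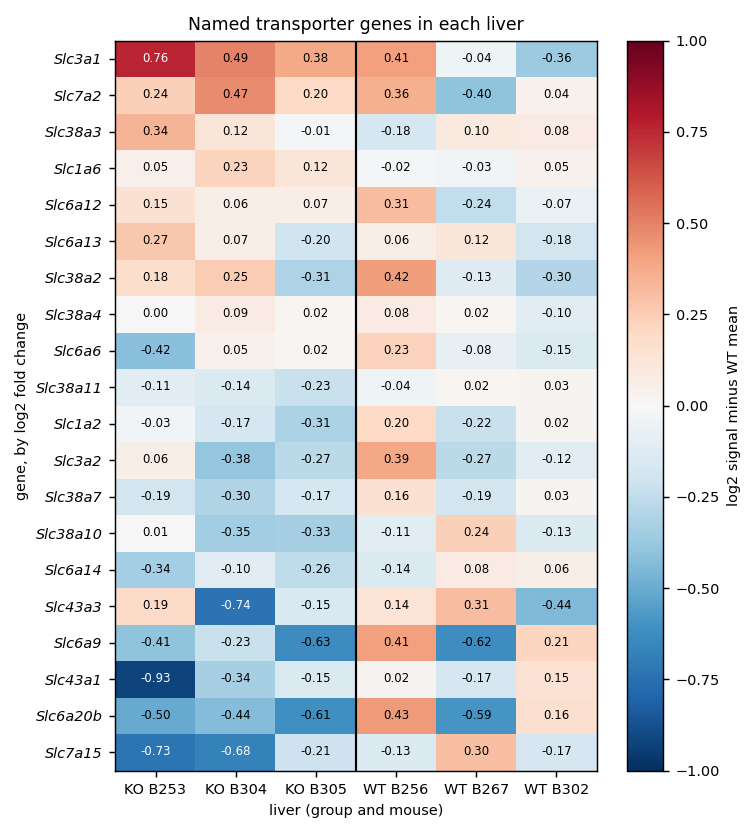
Log2 signal of the 20 transporter genes given liver by liver, as the difference from the WT mean, with the 3 KO livers left of the 3 WT livers and genes ordered by log2 fold change. Red is above and blue below the WT mean. Slc3a1 was highest in KO B253 (0.76), and Slc6a9 and Slc6a20b were low in all 3 KO livers and in WT B267.

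Markers of other liver cells were measured beside the transporters. All 8 stellate cell markers had log2 fold changes at or below 0 (median -0.11), with the largest for Lrat, the enzyme that stores retinol (-0.43, unadjusted p = 0.013 from limma). The summed linear signal of that list was 441 to 493 in the KO livers and 454 to 576 in the WT livers. Of 8 sinusoidal endothelial markers 6 were below 0 (median -0.17, but -0.07 with the number series as a block). Their sums were 1002 to 1040 in KO and 1051 to 1290 in WT livers. Of 8 Kupffer cell markers 6 were below 0 (median -0.14, but 0.06 with the number series as a block), with sums of 1536 to 1770 in KO and of 1355 to 2341 in WT livers. Of 6 T and NK cell markers 4 were below 0 (median -0.16), with sums of 155 to 168 in KO and of 179 to 204 in WT livers. Neutrophil markers were above 0 in 5 of 6 (median 0.14, sums of 318 to 517 in KO and of 245 to 467 in WT livers). Of the 5 cholangiocyte markers measured 3 were below 0 (median -0.00, sums of 131 to 155 in KO and of 136 to 141 in WT livers). With the block the medians were -0.08 for stellate cells, -0.18 for T and NK cells, 0.32 for neutrophils and -0.05 for cholangiocytes. None of these markers passed the adjusted test, array signals have no true 0, and their part in the transporter values was not tested. In whole liver, fewer cells of a type and less RNA per cell cannot be told apart.

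Genes that work with the transporters were described in the same way, and 0 of them passed the adjusted test. Of 10 mitochondrial amino acid carriers, 8 had log2 fold changes above 0 (median 0.14). Slc25a2, a carrier of ornithine and other basic amino acids, had signals of 4.54, 4.42 and 4.75 in the KO livers, against 4.23, 4.26 and 4.20 in the WT livers. The groups did not overlap, and the log2 fold change was 0.34 (unadjusted p = 0.021 from limma). Slc25a15, the ornithine carrier of the urea cycle, had a log2 fold change of 0.43 (unadjusted p = 0.097 from limma), and Slc25a29 of 0.23. The log2 fold change of Slc25a22 was 0.20 (unadjusted p = 0.52 from limma), with 0.84 within the two-hundreds and -0.0003 within the three-hundreds. Of 12 other amino acid and peptide transporters, 8 were above 0 (median 0.06). Slc16a10, the aromatic amino acid carrier, had signals of 7.98, 8.05 and 7.96 in the KO livers, against 8.25, 7.16 and 7.13 in the WT livers. WT B256 again stood above the mutants here, and the log2 fold change was 0.48 (unadjusted p = 0.11 from limma). Slc15a4 had a log2 fold change of 0.35 and Ctns of -0.34 (unadjusted p of 0.064 and 0.084 from limma).

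The amino acid response, in which Atf4 switches on transporter and synthesis genes when amino acids run short, showed no common direction. Of its 12 genes, 7 had log2 fold changes above 0 (median 0.05), 1 was higher and 2 were lower at an unadjusted p under 0.05, where 1.52% of all genes were higher and 1.51% lower. Chac1, a glutathione-degrading enzyme induced by Atf4, had signals of 5.95, 6.11 and 6.14 in the KO livers, against 6.79, 6.53 and 6.93 in the WT livers. The groups did not overlap, and the log2 fold change was -0.69 (unadjusted p = 0.00079 and adjusted p = 0.9997 from limma). Phgdh, the first enzyme of serine synthesis, was also lower in all 3 KO livers than in any WT liver (log2 fold change of -0.58, unadjusted p = 0.0029 from limma). Ddit3, which encodes Chop, had a log2 fold change of 0.51 (unadjusted p = 0.038 from limma). Its groups overlapped, and the exact two-sided permutation p was 0.2. The Ddit3 difference was 1.06 within the two-hundreds, with KO B253 as the single mutant liver, and -0.03 within the three-hundreds. Slc7a11, Slc3a2, Slc7a5 and Slc38a2, transporters known as targets of Atf4, had log2 fold changes of 0.01, -0.20, 0.16 and 0.04.

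Of 11 genes of lysosomal amino acid sensing, 5 were above 0 (median -0.01) and 0 reached an unadjusted p under 0.05. Of the 5 measured genes for partners and regulators of the transporters, 1 was above 0 (median -0.03, but 0.07 with the number series as a block). Of the 6 measured enzymes of glutamine and glutamate, 4 were above 0 (median 0.09). Got1, the cytosolic aspartate aminotransferase, had a log2 fold change of 0.37 (unadjusted p = 0.13 from limma) and Glul, the glutamine synthetase of perivenous hepatocytes, of -0.20.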

How the data were processed

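Liver RNA of 3 Lkb1KOlivad and 3 control mice was hybridized to Affymetrix arrays, 1 for each mouse. The deposited values are log2 signals, which the authors made with RMA (background correction, normalization between arrays and summary of probes) before deposit. Per the labels, RMA and Partek were used, while the methods name BRB-ArrayTools and Expression Console, with no version given in the sources used here. Depth has no meaning for arrays, and their number limits the precision. Nothing says more of the replicates than a mouse number each.

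Of 35556 probe sets, 21789 had 1 symbol in the annotation used, 1621 had several and 12146 had none. The deposited probe set identifiers and that annotation are both of an older array design than the methods give. Symbols were updated by gene identifier (21698 found), and the brightest probe set by mean signal was kept for each of 999 genes with several, 2 transporters among them, which gave 19938 genes. No filter on signal was applied.

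The groups were compared with limma 3.58.1 under R 4.3.3 (lmFit, then eBayes, without covariates). P-values were two-sided and adjusted by Benjamini-Hochberg over the 19938 genes at a threshold of 0.05, and an exact permutation test was added for single genes. The steps were tested on simulated data. Named with values were the transporters the paper names, those at an unadjusted p under 0.05, those whose groups do not overlap, the 10 largest changes, the 10 highest signals and both heavy chains, with up to 3 genes of other lists. Genes named outside this rule were chosen for their role or after their values were seen. The transporters and lists were chosen with earlier results of these data known. Alternatives were quantile normalization, median centring, leaving out dim genes, averaged probe sets, eBayes with trend and robust options, array weights, the methods' t-test, the mouse number series as a block or apart, and leaving out each mouse. Python 3.11.15 with matplotlib 3.10.9 drew the figures.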

Additional observations from a re-analysis of the deposited data

How the results depend on the processing

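The count of transporters at an adjusted p under 0.05 was 0 in every alternative run, with a lowest adjusted p of 0.86 without WT B267. With the number series of the mice as a block the same 3 genes reached an unadjusted p under 0.05, among 2.95% of all genes higher and 2.07% lower. No paired analysis was possible because the labels give no replicate number that KO and WT livers share. At an unadjusted p under 0.05, 0 were higher with the methods' t-test and 0 to 3 when 1 liver was left out. Lower were 1 with median centring, with array weights, with the methods' t-test and without dim genes, and 0 to 4 when 1 liver was left out, with 4 without WT B267 and 0 without KO B253 or KO B304. The count of 2 lower stayed with quantile normalization and with the trend and robust fit, but Slc6a14 and Slc6a20b stood there in place of Slc43a1, each in its setting. All KO values lay above all WT values in 2 genes with median centring, 3 with quantile normalization, 0 without dim genes and 1 to 7 when 1 liver was left out. They lay below in 4 with quantile normalization, 1 without dim genes and 4 to 13 when 1 liver was left out, where smaller groups overlap less often by construction. The median log2 fold change of the transporters was -0.054 within the three-hundreds, -0.040 within the two-hundreds, -0.059 without dim genes and -0.057 to 0.016 when 1 liver was left out. The median of the light chain genes was -0.0045 with the block and 0.0068 without it. Some classes moved more. With the block the median was 0.15 against 0.035 for system A and N, and 0.29 against 0.17 for the heavy chains. It was -0.10 against -0.23 for Slc43 and -0.043 against -0.11 for the other Slc38 genes. The remaining classes moved less than these.

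Signs changed for genes with small differences, and the cause was not tested. Slc38a2 was at -0.020 with array weights, -0.0069 with quantile normalization and -0.11 to 0.25 when 1 liver was left out. Slc38a3 was at -0.024 within the three-hundreds. Slc38a4 was at -0.0090 with quantile normalization, -0.048 within the two-hundreds and -0.017 to 0.078 when 1 liver was left out. Slc6a13 was at -0.019 with array weights and -0.065 to 0.17 when 1 liver was left out. Slc6a6 was at 0.18 within the three-hundreds and -0.20 to 0.031 when 1 liver was left out. Slc3a2 was at 0.0028 within the two-hundreds. Leaving out 1 liver gave -0.46 to 0.020 for Slc43a3 and -0.029 to 0.25 for Slc6a12. Weaker signals lie near those of untranscribed genes and limit what can be seen for Slc6a14, Slc6a15, Slc7a11, Slc7a12, Slc7a13 and Slc38a11. The limit may cover more genes, because that guide rests on 3 Y-linked genes only. In all, 35 of the 62 transporters lay at or under the median of all genes, and which of them are transcribed in liver was not tested. For a gene that is not transcribed, a narrow interval says nothing of its regulation.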

Other observations

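The opposite strand genes that share a name with 2 transporters were measured as genes of their own. Slc7a6os had signals of 7.19, 7.39 and 7.60 in the KO livers, against 7.03, 7.23 and 7.27 in the WT livers, with a log2 fold change of 0.21 (unadjusted p = 0.16 from limma), where Slc7a6 itself had -0.09. Slc6a19os had a log2 fold change of 0.14 (unadjusted p = 0.36 from limma), as Slc6a19 did. The second probe set of Slc38a1 gave 0.09 on the log2 scale, against 0.01 for the brighter one.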
